A study of Eublepharis macularius with 23 samples.

Results

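Muscle contractile genes were used to ask how much muscle RNA each library of leopard gecko dorsal skin holds, by genotype. With earlier results of these data known, 53 of the 22064 genes in the count tables were chosen by symbol or, for *LOC129347109*, by identifier. They are the numbered myosin heavy and light chains, troponins, tropomyosins, myozenins and alpha-actinins, the myosin-binding proteins, and the single genes *ACTA1*, *ACTA2*, *ACTC1*, *CKM*, *DES*, *TTN*, *TCAP*, *MYOD1*, *MYOG*, *MYF5*, *MYF6*, *LDB3*, *CASQ1*, *RYR1* and *LOC129347109*, which the annotation calls *SYNPO2L-like*. Hypome 1 and Hypome 3 are recessive hypomelanistic morphs, in which the skin carries less melanin. Skin of embryos at about embryonic day 40 was sequenced in bulk, 1 library per embryo. The Hypome 1 libraries came from 2 wild-type (+/+), 3 heterozygous (mh1/+) and 4 homozygous (mh1/mh1) embryos, all offspring of a single pair of heterozygous parents and collected over several seasons, so the wild-type embryos share their parents' background. Only 3 heterozygous libraries (mh3/+) were analysed here for Hypome 3, so its genotypes were not compared.

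Striated muscle contracts through the sarcomere, a repeated unit in which thick filaments of myosin slide along thin filaments of actin, troponin and tropomyosin between 2 Z discs. Skeletal muscle cells arise from precursors that switch on *MYF5* and *MYOD1*, then *MYOG*, and they build fast and slow versions of most sarcomere proteins from separate genes. Embryonic dorsal skin lies directly over trunk muscle, while non-muscle myosins and actinins work in nearly every cell and smooth muscle proteins in vessel walls.

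By these roles the members were sorted into 12 genes of the striated thick filament, 10 of the thin filament, 10 of the Z disc with titin and desmin, 3 of calcium release and energy supply, 4 myogenic transcription factors, 4 tropomyosins that several cell types make, 2 smooth muscle genes, 7 non-muscle myosins and actinins, and *TNNI3K*, a kinase that matched only by its symbol. The first 4 classes, 35 genes in all, are called striated members below. Of the 53 members, 52 passed the filter on low counts and only *MYBPC3*, the cardiac myosin-binding protein C, did not. Of the myosin heavy chains, the symbols caught *MYH7B*, *MYH9*, *MYH10*, *MYH11* and *MYH15* only, so further heavy chains without such a symbol are not counted here.

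Depth ran from 32455975 to 52017277 counts in Hypome 1 and from 16826633 to 21208295 counts in Hypome 3. Among counts from 10 to 2000, between 57.8% and 65.5% were even numbers in Hypome 1, where Hypome 3 showed an equal split of even and odd counts. Levels are given as CPM, counts scaled to the library total, adjusted for Hypome 1 with edgeR's TMM factors, which ran from 0.780 in homozygous replicate 1 to 1.08 and were nearly the same when muscle genes were left out of the scaling (0.782 in that library). The summed level of dermal fibroblast markers was 101018 to 134076 CPM and of epidermis markers 1937 to 4072 CPM in the 9 Hypome 1 libraries. Both kinds of skin marker were thus abundant in every library, and the epidermis markers were higher in each homozygous library than in any other. Homozygous replicate 1 stood apart from the other homozygous libraries in the members' levels, and results that rest on it are given with and without it. Replicates 1 and 4 of the homozygous group had lower RNA integrity in the study's sample list, which was joined to the libraries by replicate number.

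Striated members took between 0.00558% and 0.635% of all counts, a range of 114-fold over the 9 Hypome 1 libraries. The wild-type libraries were at 0.0819% and 0.147%. The heterozygous libraries were at 0.336%, 0.0634% and 0.635%, and the homozygous libraries at 0.595%, 0.00781%, 0.00558% and 0.0161%, in replicate order. Homozygous replicate 1 and heterozygous replicate 3 were the muscle-rich libraries and homozygous replicates 2, 3 and 4 the muscle-poor ones. Each homozygous library thus lay either above both wild-type libraries or below both. Counting error was small against these gaps, with 95% Wilson intervals of 0.00534% to 0.00583% for the lowest and 0.632% to 0.638% for the highest library. These intervals cover counting error only. They take each count as independent, which was not tested given the excess of even counts in Hypome 1. Every Hypome 1 total also exceeded the largest number of reads that the paper states for a leopard gecko library. The intervals may therefore be too narrow, and limits given for a count of 0 rest on the same assumption. In bulk RNA, fewer muscle cells and less RNA per muscle cell cannot be told apart.

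**Figure D1:**
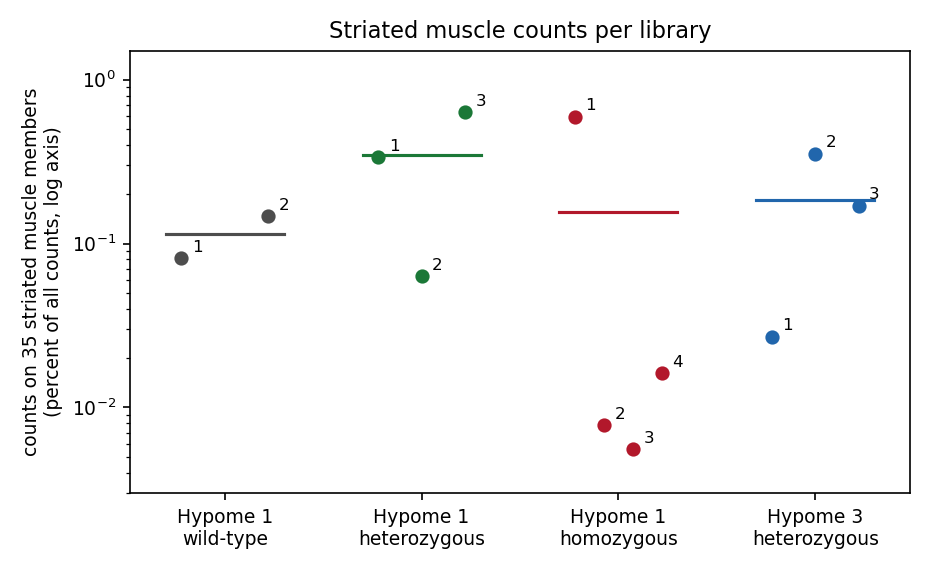
Percent of each library's counts that fell on the 35 striated members, on a log axis, for the 3 Hypome 1 genotypes and the heterozygous Hypome 3 libraries. Each point is 1 library with its replicate number and each bar is the group mean. Homozygous replicate 1 sits at 0.595%, and the other 3 homozygous libraries sit at 0.0161% or less.

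The group means were 0.114% ± 0.0457 (SD, n = 2) in wild-type, 0.345% ± 0.286 (SD, n = 3) in heterozygous and 0.156% ± 0.293 (SD, n = 4) in homozygous skin. The SD of the homozygous group exceeded its mean, and the means differed by less than this spread. The highest library exceeded the lowest 107-fold among the homozygous, 10.02-fold among the heterozygous and 1.79-fold among the wild-type libraries. Spread of this kind was not limited to Hypome 1. The Hypome 3 heterozygous libraries were at 0.0271%, 0.354% and 0.170%, a 13.1-fold range within 1 genotype.

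Collection season was read from the study's library names and joined by replicate number. In 1 season, wild-type replicate 1 was at 0.0819%, heterozygous replicate 3 at 0.635% and homozygous replicates 2 and 3 at 0.00781% and 0.00558%. In another, wild-type replicate 2 was at 0.147% and homozygous replicates 1 and 4 at 0.595% and 0.0161%. The remaining season held only heterozygous replicates 1 and 2, at 0.336% and 0.0634%. Libraries of 1 season therefore differed many-fold, and so did both libraries of lower RNA integrity. The part of season and integrity in the muscle content was not tested.

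Among the 4 striated classes the thin filament had the most counts in every Hypome 1 library, 0.00223% to 0.272% of the total. *ACTA1*, skeletal alpha-actin, lies on Scaffold 1 of the authors' assembly from 106964768 to 106970858. Its level was 162 and 278 CPM in wild-type, 685, 100.5 and 1213 CPM in heterozygous, and 1880.2, 8.98, 3.96 and 33.0 CPM in homozygous libraries. The homozygous libraries thus held both the highest and the 3 lowest values, and they overlapped both other genotypes. *TNNI2* and *TNNC2*, fast-fibre troponins I and C, followed the same order at the extremes. *TNNI2* was at 40.4 and 78.9 CPM in wild-type, 224, 33.0 and 347 CPM in heterozygous, and 433, 3.12, 0.83 and 7.06 CPM in homozygous libraries. *TNNC2* was at 31.8 and 62.9 CPM, then 185.5, 25.4 and 287 CPM, then 447, 1.84, 0.33 and 7.16 CPM. In both, homozygous replicate 1 was the highest and replicate 3 the lowest of the 9 libraries. *TNNC2* and *TNNI1* overlap another annotated gene on the opposite strand, and whether counting used the strand is not given in the sources used here, so their counts are uncertain.

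Not every thin filament gene moved this way. *TNNI3*, cardiac troponin I in mammals, stayed between 6.68 and 9.70 CPM in all 9 libraries and went against the mean level of the tested striated members over these libraries (Pearson r = -0.663, given as a description). It held 26.1% and 44.2% of the thin filament counts in homozygous replicates 2 and 3. In replicate 3 that was 350 of 792 counts, where the Z disc class had 705, so the lead of the thin filament there rests on *TNNI3*. *ACTC1*, cardiac alpha-actin and also an early actin of embryonic skeletal muscle, was at 5.35 and 10.5 CPM in wild-type, 52.1, 15.5 and 25.4 CPM in heterozygous and 22.1, 0.41, 0.47 and 0.82 CPM in homozygous libraries. Its highest library was heterozygous replicate 1, not one of the 2 muscle-rich libraries, and its heterozygous values did not overlap the wild-type ones. A further gene that the annotation calls *ACTC1-like*, *LOC129338841*, was counted separately, so reads that both genes share may be missing from either. *LOC129338841* was at 26.5 and 106 CPM in wild-type, 160, 32.5 and 744 CPM in heterozygous and 379, 2.30, 0.25 and 6.04 CPM in homozygous libraries. It exceeded *ACTC1* in every Hypome 1 library but homozygous replicate 3.

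Thick filament light chains repeated the *ACTA1* pattern. *MYL1*, the fast essential light chain, was at 66.0 and 130 CPM in wild-type, 365, 52.2 and 643 CPM in heterozygous and 893, 3.38, 0.44 and 11.2 CPM in homozygous libraries. *MYL11*, the fast regulatory light chain, was at 83.7 and 134 CPM, then 366, 54.7 and 664 CPM, then 836, 9.39, 4.13 and 17.1 CPM. *MYL2*, the slow and cardiac regulatory light chain, was at 14.4 and 29.6 CPM in wild-type, 34.9, 9.84 and 66.3 CPM in heterozygous and 98.4, 0.60, 0.17 and 2.51 CPM in homozygous libraries, with the same extremes. *MYL3*, the slow essential light chain, was instead highest in heterozygous replicate 3, at 156 CPM against 93.7 CPM in homozygous replicate 1. The myosin-binding proteins *MYBPC1* (slow) and *MYBPC2* (fast) reached 99.4 and 197 CPM at most and fell to 0.30 and 0.08 CPM in homozygous replicate 3. *MYH15* was the exception in this class, with 2.11 and 2.83 CPM in wild-type, 2.35, 5.02 and 2.58 CPM in heterozygous and 1.29, 1.01, 1.47 and 1.79 CPM in homozygous libraries. All 4 homozygous libraries, the muscle-rich one included, lay below the other 5.

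At the Z disc, which anchors the thin filaments, *ACTN3*, the fast-fibre alpha-actinin, was at 15.9 and 35.1 CPM in wild-type, 89.7, 12.6 and 176 CPM in heterozygous and 198, 1.72, 1.77 and 4.45 CPM in homozygous libraries. *TTN*, the giant protein that spans from Z disc to the middle of the sarcomere, was at 18.3 and 42.7 CPM, then 94.5, 23.1 and 186 CPM, then 204, 0.87, 0 and 3.63 CPM. Homozygous replicate 3 had no count on *TTN*, which allows up to 3 counts, although the gene is the longest of the members. *TTN* also overlaps an annotated *TTN-like* gene on the same strand, which makes its counts uncertain. *MYOZ1*, a Z disc protein of fast fibres, was at 4.84 and 8.97 CPM in wild-type, 24.1, 3.79 and 50.3 CPM in heterozygous and 66.0, 0.28, 0 and 1.02 CPM in homozygous libraries.

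*DES*, the intermediate filament protein of all muscle types, varied much less. It was at 21.1 and 28.1 CPM in wild-type, 46.6, 19.3 and 75.3 CPM in heterozygous and 63.7, 11.4, 12.7 and 11.6 CPM in homozygous libraries, a 6.60-fold range. In the muscle-poor homozygous replicates 2 and 3 *DES* held more counts than any other striated member, 14.1% and 23.1% of their sum, where *ACTA1* led in the remaining 10 libraries. Desmin is also made by smooth muscle and pericytes. The striated percent of homozygous replicates 2 and 3, and ratios set against their striated counts, thus rest in part on *DES* and *TNNI3*.

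Calcium release and energy genes completed the pattern. *CKM*, the creatine kinase of skeletal muscle, was at 106 and 129 CPM in wild-type, 376, 57.4 and 658 CPM in heterozygous and 850.4, 4.11, 0.69 and 12.3 CPM in homozygous libraries, a 1228-fold range. *CASQ1*, which stores calcium in the sarcoplasmic reticulum, was at 19.3 and 51.5 CPM, then 126, 17.6 and 307 CPM, then 354.5, 3.12, 2.72 and 6.96 CPM. *RYR1*, the channel that releases this calcium, varied less, from 2.43 to 50.9 CPM. Of the 34 striated members tested, 5 were at 0 in their lowest library, 19 varied by over 100-fold, 6 by 10-fold to 100-fold and 4 by less than 10-fold over the 9 libraries. The highest library was homozygous replicate 1 for 18 of them and heterozygous replicate 3 for 13, and homozygous replicate 3 was the lowest for 22.

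**Figure D2:**
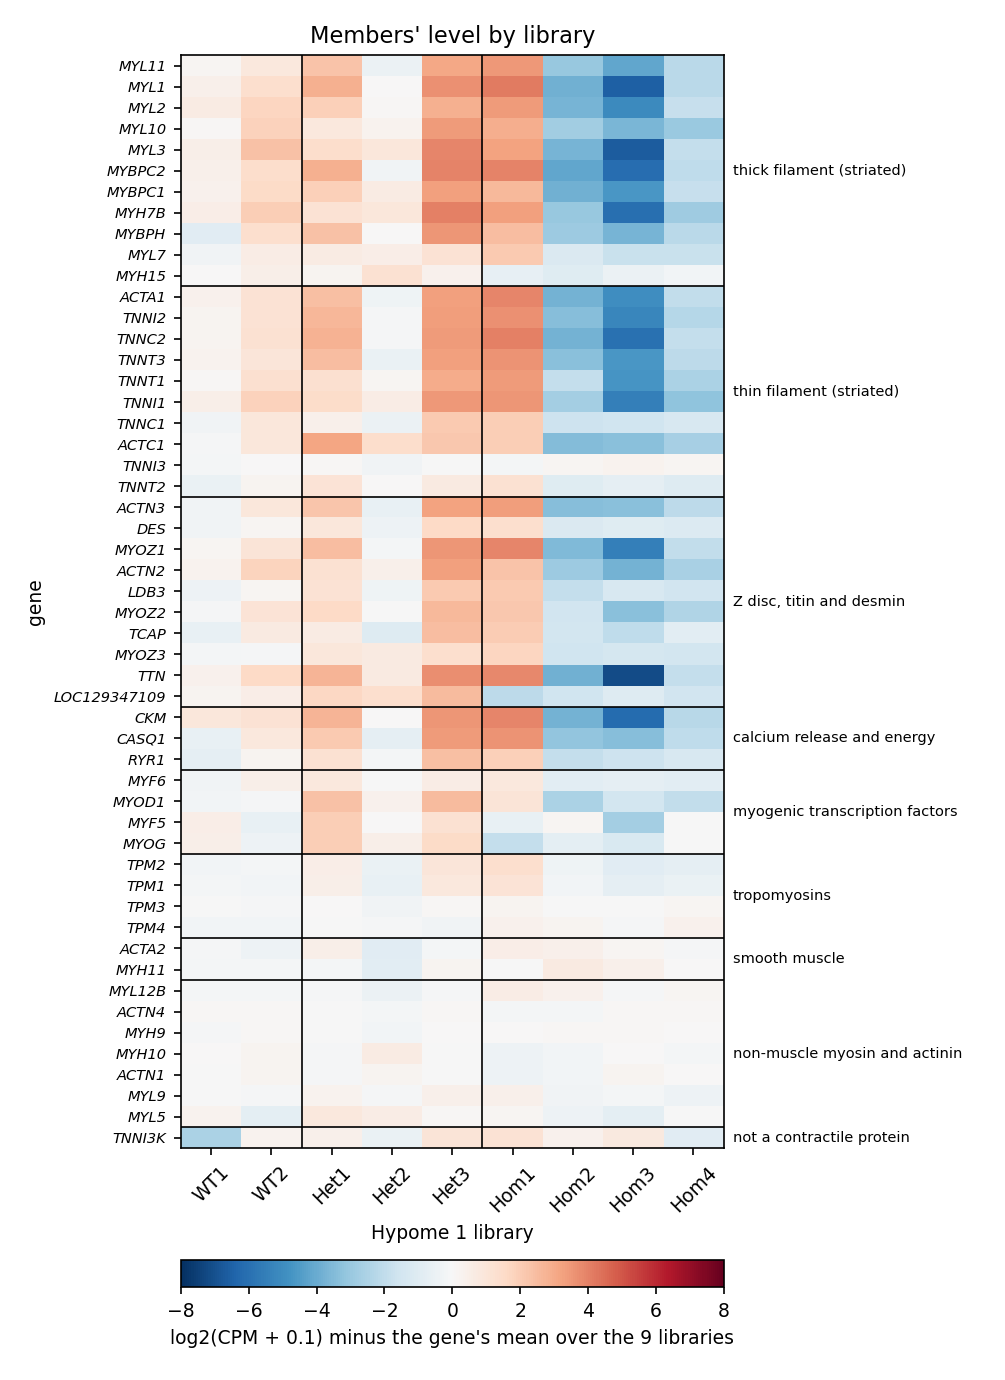
Level of the 52 members that passed the filter in the 9 Hypome 1 libraries, as log2(CPM + 0.1) minus the gene's mean over the libraries, grouped by role, with red above and blue below the mean. For most genes of the striated classes homozygous replicate 1 and heterozygous replicate 3 are red and homozygous replicates 2 to 4 blue. *LOC129347109* is blue in homozygous replicate 1 too, while *TNNI3*, *MYH15*, and the smooth and non-muscle genes stay pale.

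Myogenic transcription factors were scarce and did not all follow the structural genes. *MYOD1*, which commits cells to muscle, was at 0.40 and 0.44 CPM in wild-type, 2.81, 0.65 and 3.33 CPM in heterozygous and 1.09, 0, 0.11 and 0.05 CPM in homozygous libraries. *MYOG*, which drives the final differentiation of muscle cells in mice, lies on Scaffold 5 from 127940614 to 127948286. It was at 0.40 and 0.17 CPM in wild-type, 1.32, 0.40 and 0.94 CPM in heterozygous and 0, 0.11, 0.06 and 0.26 CPM in homozygous libraries. The muscle-rich homozygous replicate 1 had no count on *MYOG*, and no homozygous library reached the lowest heterozygous one. *MYF5*, the earliest of the factors in the mouse embryo, was at 0.85 and 0.33 CPM, then 2.43, 0.55 and 1.44 CPM, then 0.34, 0.62, 0 and 0.54 CPM. *MYF6*, a factor of maturing fibres, ranged from 0.60 to 2.15 CPM, with its 3 lowest values in homozygous replicates 2, 3 and 4.

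*LOC129347109*, named after *SYNPO2L*, a Z disc gene of mammals, lies on Scaffold 6 from 19284887 to 19322672. It was at 0.40 and 0.52 CPM in wild-type, 1.27, 0.98 and 2.39 CPM in heterozygous and 0, 0.05, 0.11 and 0.05 CPM in homozygous libraries. The genotypes did not overlap in any pair. The gene was included by its identifier with earlier results of these data known. Its values therefore cannot be taken as independent of that choice. The counts behind these levels were low, with 14 and 24 in wild-type, 69, 39 and 86 in heterozygous and 0, 2, 4 and 2 in homozygous libraries.

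Homozygous replicate 1 had 224189 counts on striated members and 0 on both *MYOG* and *LOC129347109*, while heterozygous replicate 3, with 219020 striated counts, had 34 and 86. Set against 100000 striated counts, *MYOG* came to 52.7 and 12.5 in wild-type, 41.2, 68.5 and 15.5 in heterozygous and 142, 101 and 154 in homozygous replicates 2, 3 and 4. A count of 0 in homozygous replicate 1 allows up to 1.34. Among Hypome 1 libraries with a count, that library also had the lowest ratio for *MYF5*, 4.46 against 23.5 or more. Its *MYOD1* ratio was lowest too, 14.3 against 30.8 or more in Hypome 1 libraries with a count. In Hypome 3 the *MYF5* ratio was 592, 18.2 and 14.0. The values of homozygous replicates 2 to 4 rest on 2 to 10 *MYOG* counts each. These ratios describe single libraries and were given no test. Homozygous replicate 1 was also listed with lower RNA integrity and had the fewest genes with a count, 17306. The part of this in its low ratios was not tested.

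**Figure D3:**
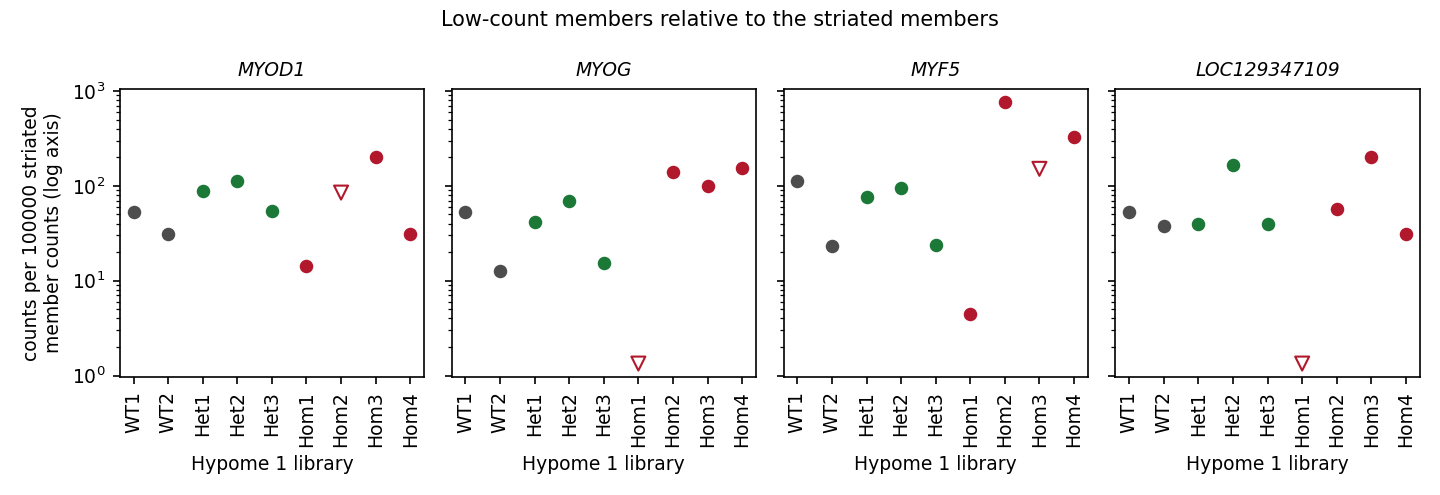
Counts of 3 myogenic transcription factors and *LOC129347109* per 100000 counts on striated members in each Hypome 1 library, on a log axis. Open triangles mark libraries with 0 counts, drawn at the limit that 3 counts would give. The triangles of homozygous replicate 1 for *MYOG* and *LOC129347109* sit at 1.34.

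Members that are not bound to striated muscle varied less than most striated members. *TPM1* and *TPM2*, tropomyosins of several muscle types, ranged from 191 to 660 CPM and from 140 to 663 CPM with their maxima in homozygous replicate 1, a 3.45-fold and a 4.75-fold range. Both followed the mean level of the striated members (r = 0.822 and 0.870), as did *MYL9*, a light chain of smooth and non-muscle myosin, within a narrower range of 10.7 to 18.8 CPM (r = 0.865). These correlations over the 9 libraries are given as a description. *TPM3* stayed between 426 and 625 CPM and *TPM4* between 71.1 and 110 CPM. *TPM4* overlaps other annotated genes on both strands, with *RAB8A*, *FAM32A* and *AP1M1* on its own strand, so its counts are uncertain. The smooth muscle actin *ACTA2* was at 18.8 and 15.01 CPM in wild-type, 26.9, 10.6 and 17.7 CPM in heterozygous and 29.0, 26.6, 22.2 and 18.5 CPM in homozygous libraries, and its groups overlapped. *MYH11*, the smooth muscle heavy chain, was at 6.23 and 6.07 CPM, then 6.23, 3.82 and 7.89 CPM, then 6.71, 11.3, 9.06 and 6.93 CPM. Homozygous libraries lay above both wild-type ones for *MYH11*.

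Among the non-muscle genes, *MYH9*, a cytoskeletal myosin, was at 182 and 202 CPM in wild-type, 189, 169 and 197 CPM in heterozygous and 198, 203, 204 and 199 CPM in homozygous libraries. *ACTN4*, a cytoskeletal alpha-actinin, ranged from 496 to 606 CPM. *MYL12B*, a regulatory light chain of non-muscle myosin, was at 214 in both wild-type, 222, 175 and 220 CPM in heterozygous and 366, 300.3, 223 and 262 CPM in homozygous libraries. It was higher in every homozygous library than in any other. The 7 non-muscle genes together took 0.0939% to 0.126% of the counts in Hypome 1, a range of 1.34-fold against 114-fold for the striated members. *TNNI3K* was at or under 1.16 CPM throughout.

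Homozygous and wild-type skin were compared with a model fitted across all 16751 genes that passed the filter, and none of the 52 members passed an adjusted p of 0.05 in edgeR's quasi-likelihood test (0 higher, 0 lower), against 3 of all genes (0.0179%). At an unadjusted p under 0.05, *TPM4* was higher and *LOC129347109* lower, against 8.53% of all genes. With DESeq2's Wald test, *LOC129347109* alone was called, against 1.25% of genes, on all 9 libraries. On only these 2 genotypes DESeq2 called 0 of the 23 members to which it gave an adjusted p, and it gave none to *LOC129347109* (unadjusted p = 0.0143). The smallest adjusted p among the members in edgeR was 0.395, for *LOC129347109*, with a log2 fold change of -3.04 ± 0.76 (SE). This gene was included by its identifier with earlier results of these data known, so its tests are no independent support. Groups did not overlap for 3 members that were higher (*MYL12B*, *MYH11* and *TPM4*, against 9.94% of all genes) and 3 that were lower (*LOC129347109*, *MYH10* and *MYH15*, against 9.52%). These shares of the members do not exceed those of all genes. The exact permutation test of 2 against 4 samples, two-sided, cannot give a p under 0.1333 here. These p-values measure the spread between embryos of a single pair of parents.

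The striated members had a median log2 fold change of 0.22 between homozygous and wild-type skin, with 23 above 0 and 11 below, where the median of all genes was 0.01. This direction depended on single libraries and on the fit. The median was -0.19 without wild-type replicate 1 (17 above 0, 18 below) and -1.83 with season as a factor. Of the single libraries left out, homozygous replicate 1 moved it furthest. *ACTA1* changed by 1.13 ± 2.00 (SE) on the log2 scale in all 9 libraries (edgeR adjusted p = 0.904) and by -3.84 ± 0.99 without that library (edgeR adjusted p = 0.383). Without it the median of the striated members was -3.75, and 33 of 34 lay below both wild-type libraries in every remaining homozygous library, against 13.2% of all genes. At an unadjusted p under 0.05, 32 members were then lower, against 3.76% of all genes, and edgeR called 0 of 52 members, against 0.0239%. Homozygous replicate 1 was singled out by these same members' levels, so the fall without it follows in part from that choice. Most striated members share a common pattern over the libraries and do not count as separate results. edgeR thus called no striated member in this comparison, with or without homozygous replicate 1, and DESeq2 on all 9 libraries called only *LOC129347109*.

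Between homozygous and heterozygous skin, edgeR again called 0 of 52 members, against 6 of all genes (0.0358%). At an unadjusted p under 0.05, *LOC129347109*, *MYOG*, *MYOD1* and *MYH15* were lower and *MYL12B* and *TPM4* higher, against 8.13% and 9.7% of all genes in these directions. *LOC129347109* came nearest to the threshold, with a log2 fold change of -4.77 ± 0.71 (SE, edgeR adjusted p = 0.0664), lower in 4 of 4 homozygous libraries. Since it was included with earlier results of these data known, its tests and calls here are no independent support. *MYH15* followed with -1.25 ± 0.35 (SE, edgeR adjusted p = 0.118) and *MYOG* with -2.98 ± 0.85 (SE, edgeR adjusted p = 0.126), both without overlap. *MYOD1* was at -2.92 ± 1.13 (SE, edgeR adjusted p = 0.221), and homozygous replicate 1 overlapped the heterozygous group. DESeq2 called *LOC129347109*, *MYOG* and *MYH15*, against 7.1% of genes with all 9 libraries and 6.36% with only these 2 genotypes. Groups did not overlap for 2 members that were higher (*MYL12B* and *MYH9*, against 8.93%) and 3 that were lower (*LOC129347109*, *MYOG* and *MYH15*, against 8.23%). The exact permutation p of each of these was 0.0571 (two-sided), the smallest that 3 against 4 samples allow. In edgeR, *LOC129347109* was called without homozygous replicate 3 (against 1.64% of genes) and with no filter (against 0.0808%).

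The striated members had a median log2 fold change of -0.87 in this comparison, with 33 of 34 below 0, against -0.00 for all genes. The median stayed below 0 in each alternative fit, and 2 libraries moved it most. *ACTA1* changed by -0.47 ± 1.66 (SE, edgeR adjusted p = 0.896) with all libraries, by -5.43 ± 1.03 without homozygous replicate 1 (edgeR adjusted p = 0.0620) and by 0.29 without heterozygous replicate 3. The median of the striated members was -5.26 without homozygous replicate 1 and -0.0015 without heterozygous replicate 3, where 16 were above 0 and 18 below. Without homozygous replicate 1, 32 of 34 striated members lay below every heterozygous library, against 11% of all genes, and 39 members were lower at an unadjusted p under 0.05, against 7.48%. edgeR then called 1 member, against 0.0478% of genes, *ACTC1*, with a log2 fold change of -5.77 ± 0.55 (SE, edgeR adjusted p = 0.0068). Here too homozygous replicate 1 was singled out by the members' own levels, so the lower levels without it follow in part from that choice. The striated members again share a common pattern and do not count as separate results.

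**Figure D4:**
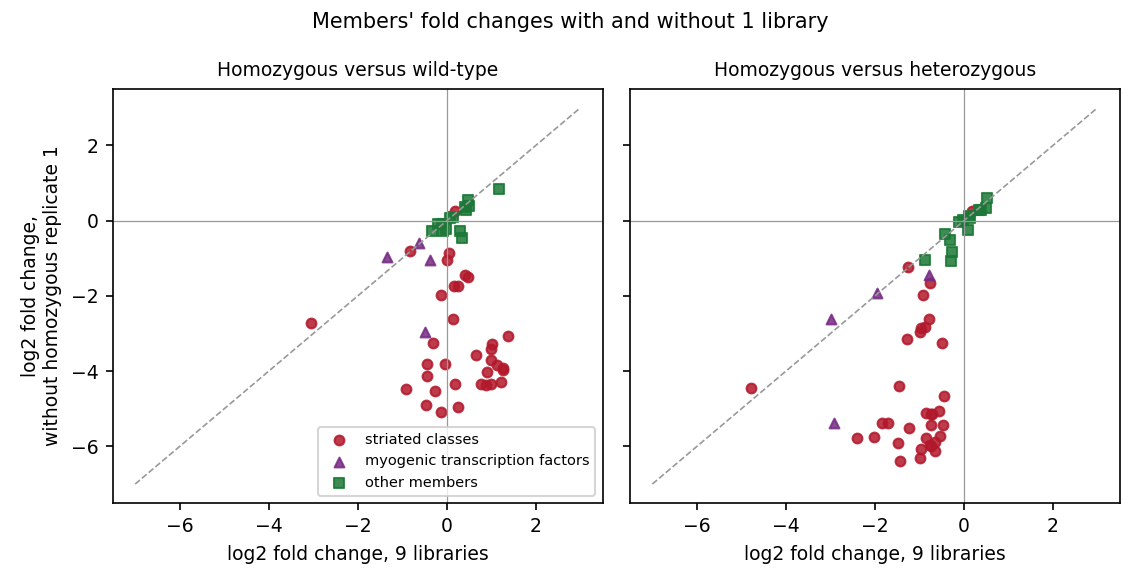
Log2 fold change of each member in edgeR with all 9 libraries (horizontal) and without homozygous replicate 1 (vertical), for homozygous against wild-type (left) and heterozygous skin (right). The dashed line marks equal values. Most striated members and *MYOD1* fall far below the line, the former to a median of -3.75 and -5.26, while *LOC129347109*, *TNNI3*, *MYH15* and the smooth and non-muscle genes stay near it.

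Heterozygous against wild-type skin was the comparison with the fewest libraries in its groups, and the fewest genes passed in it. None of the 52 members was called by edgeR or by DESeq2 on the 9 libraries, as none of all genes was (0%), and only *LOC129347109* was higher at an unadjusted p under 0.05 in edgeR, against 1.53% of all genes. Its log2 fold change was 1.73 ± 0.75 (SE), and its inclusion with earlier results known makes this no independent support. Groups did not overlap for 5 members, all higher in heterozygous skin (*LOC129347109*, *MYOZ3*, *MYOD1*, *MYOG* and *ACTC1*, against 6.9% of all genes). The median of the striated members was 1.33, with 33 of 34 above 0, against 0.00 for all genes, and it stayed between 0.82 and 2.04 when any 1 library was left out. With season as a factor or the replicate number as a block it moved outside this range, as given in the closing section. *ACTA1* changed by 1.60 ± 2.12 (SE), *DES* by 0.93 ± 0.80 and *MYH9* by -0.06 ± 0.13. The heterozygous libraries enter both this and the preceding comparison.

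Fast and slow isoforms were compared within each library, as a ratio of TPM, a level scaled by gene length and library total. The fast troponin I *TNNI2* exceeded the slow *TNNI1* in every library, by 5.24 and 3.91 in wild-type, 14.4, 4.01 and 5.69 in heterozygous and 6.61, 4.16, 18.8 and 13.3 in homozygous skin. *TNNT3*, fast troponin T, exceeded slow *TNNT1* by 4.45 and 3.31, then 9.40, 2.43 and 5.00, then 4.65, 1.55, 5.61 and 5.85. Both ratios overlapped between the genotypes. The troponin I value of homozygous replicate 3 rests on 30 and 2 counts.

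*TNNC2*, fast troponin C, against *TNNC1*, the slow and cardiac form, behaved differently. The ratio was 3.79 and 3.27 in wild-type, 13.5, 3.42 and 6.52 in heterozygous and 11.1, 0.583, 0.101 and 1.70 in homozygous libraries. It turned below 1 in homozygous replicates 2 and 3, where *TNNC1* still had 160 and 139 counts and *TNNC2* 80 and 12. *TNNC1* itself ranged only from 3.68 to 51.4 CPM and was at 3.68, 3.85 and 4.91 CPM in homozygous replicates 2, 3 and 4. The slow *TNNI1* and *TNNT1* had 41 and 91 counts in replicate 2 and 2 and 8 in replicate 3. Neither of their ratios fell below 1 there, so the low ratio does not show a general turn to slow isoforms. The ratio of *ACTA1* to *ACTC1* was 27.0 and 23.6 in wild-type, 11.7, 5.78 and 42.6 in heterozygous and 75.8, 19.4, 7.51 and 36.0 in homozygous libraries. In Hypome 3 it was 8.23, 5.42 and 9.58, and all 3 lay below the Hypome 1 libraries other than heterozygous replicate 2 and homozygous replicate 3. The Hypome 3 table was counted and normalized separately, so this is set side by side without a test. The *ACTC1-like* gene *LOC129338841*, more abundant than *ACTC1* in most Hypome 1 libraries, is not part of this ratio. The ratio therefore does not give the balance of all alpha-actin genes.

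**Figure D5:**
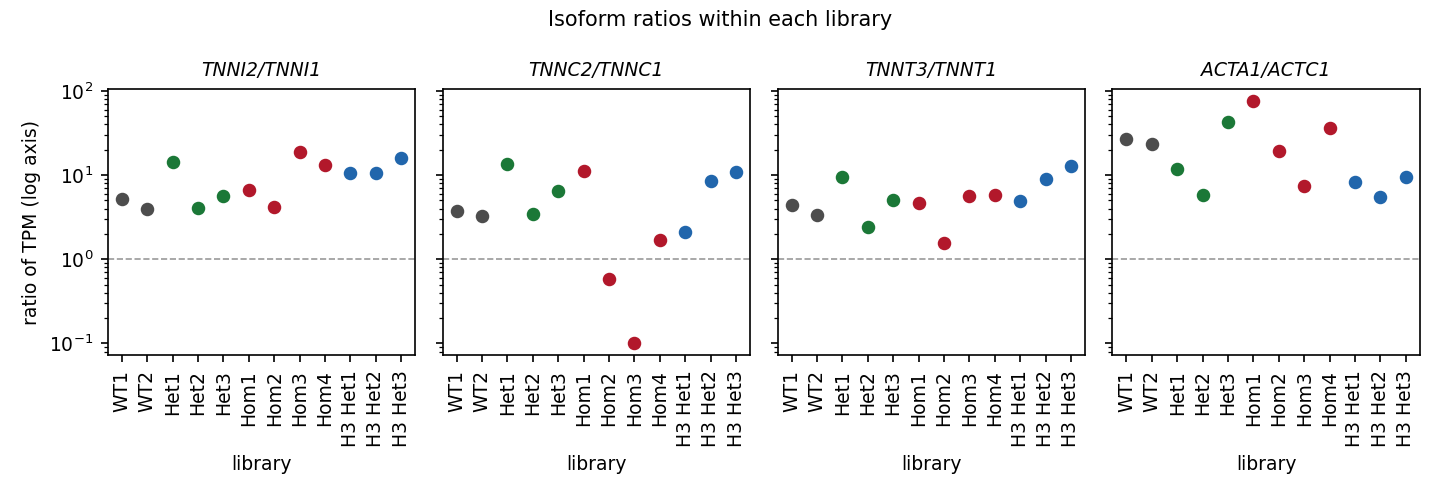
Ratio of TPM between fast and slow troponins and between *ACTA1* and *ACTC1* within each of the 9 Hypome 1 and 3 Hypome 3 (H3) libraries, on a log axis. The *ACTC1-like* gene is not included. The dashed line marks a ratio of 1. The *TNNC2* to *TNNC1* ratio drops below 1 in homozygous replicates 2 and 3 only, at 0.583 and 0.101.

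A longer list of further skeletal muscle genes, which the rule did not use, held 73 genes in the table, of which 71 were tested. None was called by edgeR in the 3 comparisons, while DESeq2 on the 9 libraries called 3 (*CACNB1*, *DOK7* and *MSTN*) between homozygous and heterozygous skin, against 7.1% of all genes, and 0 in the other two. Their median log2 fold changes were 0.17, -0.99 and 1.08 for homozygous against wild-type, homozygous against heterozygous and heterozygous against wild-type. At an unadjusted p under 0.05, 2 were higher and 1 lower in the first, against 8.53% of all genes in either direction. In the next, 0 were higher and 5 lower, against 9.7% and 8.13%, and in the last 3 were higher and 0 lower, against 1.53% in either direction. *ENO3*, the muscle enolase, was at 42.0 and 66.7 CPM in wild-type, 162, 18.2 and 316 CPM in heterozygous and 505, 5.60, 1.66 and 8.34 CPM in homozygous libraries, the same order at the extremes as *ACTA1*. *ATP2A1*, the calcium pump of fast fibres, *PGAM2* and *PYGM*, both enzymes of sugar use in muscle, and *CASQ2*, a second calsequestrin, were highest in homozygous replicate 1 or heterozygous replicate 3 too. Their lowest values, in homozygous replicates 2 or 3, were 0, 2.38, 6.57 and 0.72 CPM.

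Genes outside the members were ranked by how closely their level followed the mean level of the tested striated members over the 9 libraries. The 10 nearest were *DHRS7C* (Pearson r = 0.997), *STAC3*, *CASQ2*, *HRC*, *SMYD1*, *LOC129338841*, *CACNA1S*, *MYOM2*, *KLHL41* and *SRL* (r = 0.989), and 8 of these are on the further list. Most act in calcium handling or sarcomere assembly. Over all 16751 genes, 122 reached an r over 0.9, among them 31 of 52 members and 28 of 71 further genes. *MYOG* (r = 0.393), *LOC129347109* (0.524) and *MYF5* (0.597) were far from the pattern. These values describe the same 9 libraries, share their scaling and, for the members, include the gene itself, so no test was made.

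The members lay on 17 scaffolds, and 6 pairs lay within 200000 bases of each other. *TNNT3* and *TNNI2* on Scaffold 2, 147537 bases apart, both followed the striated pattern (r = 0.993 and 0.996), as did *TNNT2* and *TNNI1* on Scaffold 5 (0.890 and 0.983). *MYOZ1* and *LOC129347109*, 17563 bases apart on Scaffold 6, differed more (r = 0.994 and 0.524), as did *MYF6* and *MYF5* on Scaffold 9 (0.935 and 0.597), *MYBPH* and *MYOG* on Scaffold 5 (0.984 and 0.393) and *RYR1* and *ACTN4* on Scaffold 15 (0.949 and 0.0147).

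Other cell types of the trunk wall were followed through marker lists, each given as summed CPM. Tendon markers ran from 86.4 to 126 CPM in wild-type, 89.7 to 94.5 CPM in heterozygous and 46.5 to 83.8 CPM in homozygous libraries. Cartilage markers ran from 400.5 to 593, 441 to 751 and 301 to 366 CPM. Both sums were thus lower in every homozygous library, the muscle-rich replicate 1 included. A sum is weighted to its most abundant genes, and the direction of single marker genes is not given here. Of their 6 and 7 tested genes edgeR called 0. At an unadjusted p under 0.05, 3 and 4 passed in either direction against wild-type, where 8.53% of all genes did. Against heterozygous skin 2 and 3 passed in either direction, where 8.13% of all genes were lower and 9.7% higher. Epidermis markers moved the other way, from 2717 to 3190 CPM in wild-type, 1937 to 3113 CPM in heterozygous and 3712 to 4072 CPM in homozygous libraries, higher in every homozygous library than in any other. Of the 10 epidermis genes listed, 6 were found and tested, and edgeR called 0 of them. At an unadjusted p under 0.05, 1 passed in either direction against wild-type and 4 against heterozygous skin, beside the same shares of all genes. Smooth muscle markers ran from 77.6 to 93.3, 63.0 to 96.5 and 107 to 170 CPM, higher in every homozygous library than in any other. Of their 10 tested genes edgeR called 0. At an unadjusted p under 0.05, 2 passed in either direction in each homozygous comparison, beside the same shares of all genes. Heart markers ran from 8.96 to 11.03, 9.59 to 13.4 and 9.77 to 13.4 CPM. Members are part of both sums, *ACTA2* and *MYH11* for smooth muscle and *MYL7*, *TNNI3* and *TNNT2* for heart. *MYBPC3* was at or under 0.27 CPM in the 9 libraries. Bone markers, unlike cartilage and tendon markers, overlapped between the genotypes, at 46.4 to 63.2, 37.3 to 66.9 and 28.7 to 52.4 CPM. Vessel, nerve and pigment cell markers of the homozygous libraries overlapped both other genotypes too. The part of these cell types in the members' levels was not tested.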

How the data were processed

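The counts were deposited by the authors as whole numbers per gene, without normalization. Per the labels and methods, the authors mapped stranded paired-end reads to an assembly of their own with STAR 2.7.10b and counted uniquely mapped pairs with featureCounts of Subread 2.0.6 on an annotation lifted over from RefSeq. The strand setting is not given in the sources used here. The entry of *NEB*, split over 5 lines, could not be read and was not used. A total of 3 columns whose names match no sample were not used, and Hypome 2 and homozygous Hypome 3 samples were not analysed here.

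Counts of the 9 Hypome 1 libraries were tested in R 4.3.3 with edgeR 4.0.16 (filterByExpr, min.count 10, min.total.count 15, TMM, glmQLFit and glmQLFTest, 1 mean per genotype, 2-sided). P-values were adjusted by Benjamini-Hochberg over all 16751 genes tested, at a threshold of 0.05. The model had 6 residual and 3.91 prior degrees of freedom and was tested on simulated data. DESeq2 1.42.0 served as an alternative. CPM of Hypome 3 are scaled to the library's total alone. TPM were computed from counts and gene lengths. Shares, exact permutation tests on log2(CPM + 0.1), ratios and correlations were computed in Python 3.11 with pandas 2.3.3 and scipy 1.17.1. Same-numbered libraries of different genotypes did not deviate together, so replicate numbers were not used as pairs.

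The members and lists were chosen with earlier results of these data known. The sorting into roles was made by hand from known functions, and *MYL11* was placed with the thick filament after the tables were seen. Named members are the 3 of highest mean TPM in each role, members past the threshold in any comparison (none), and *ACTA1*, *CKM*, *TTN*, *DES*, *MYOD1*, *MYOG*, *MYF5*, *MYF6*, *ACTA2* and *LOC129347109*. Named non-members are the 10 nearest in level and the 5 further muscle genes of highest mean TPM. Other genes named were chosen after their values were seen. The alternatives were DESeq2, other scalings and filters, only the genotypes compared, season as a factor, the replicate number as a block, halved counts, the homozygous libraries of lower RNA integrity left out, and each library left out in turn. No sequence is shown, since none was at hand for this assembly.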

Additional observations from a re-analysis of the deposited data

Results flagged for a closer look

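In 18 results of the homozygous group of 4, homozygous replicate 1 lay far above the others. Its gap to the nearest took nearly the whole of the group's range (Dixon's test at the 95% level). Chance alone gives this in about 1 of 20 groups of normally distributed values, and the CPM used were not log-transformed. The 18 were the percent of counts on striated members and 17 of the 27 named members. The share of all genes that stood apart in this library is not given here. The percent of counts on striated members was 0.5955 there. Among thin filament genes, *ACTA1* was at 1880.2, *TNNC2* at 447 and *TNNI2* at 433 CPM. Thick filament genes were *MYL1* at 893, *MYL11* at 836 and *MYL2* at 98.4 CPM, and Z disc genes *ACTN3* at 198, *TTN* at 204, *MYOZ1* at 66.0 and *DES* at 63.7 CPM. *CKM* was at 850.4, *CASQ1* at 354.5 and *RYR1* at 35.7 CPM. *TPM1* and *TPM2* were at 660 and 663 CPM, and *MYOD1* and *MYF6* at 1.09 and 2.11 CPM. All of these come from 1 library and count as 1 pattern. *MYOG* and *LOC129347109* were at 0 in the same library. The part of its RNA integrity, listed as lower by the study as for replicate 4, was not tested.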

How the results depend on the processing

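Beside edgeR's 0 called members, DESeq2 on the 9 libraries called 1 between homozygous and wild-type skin (0 on only these 2 genotypes, where *LOC129347109* had no adjusted p) and 3 between homozygous and heterozygous skin, where it also called 3 on only the 2 genotypes. Against heterozygous skin, edgeR with no filter called 1, leaving out each library in turn gave 0 to 1 (*ACTC1* without homozygous replicate 1, *LOC129347109* without homozygous replicate 3), and the further muscle list gave 3 in either DESeq2 fit and 0 to 3 without 1 library. *LOC129347109* passed the threshold in the DESeq2 fits that gave it an adjusted p in these comparisons and with no filter against heterozygous skin, and *MYOG* in the DESeq2 fits against heterozygous skin. The choice of *LOC129347109* was not independent of these data. The median of the striated members between homozygous and wild-type skin was -1.63 with the replicate number as a block and -1.83 with season as a factor. It was -4.31 without the homozygous libraries of lower RNA integrity and -3.75 to 0.97 without 1 library. The lower-integrity libraries include the muscle-rich homozygous replicate 1, so leaving them out removes that library too. Between homozygous and heterozygous skin the median was -1.69 with the block and -5.89 with season. It was -5.72 without the lower-integrity libraries and -5.26 to -0.0015 without 1 library. Between heterozygous and wild-type skin the median was 0.15 with the block (22 above 0, 12 below) and 3.81 with season. Heterozygous replicates 1 and 2 were the only libraries of their season, so heterozygous levels with season rest on heterozygous replicate 3 alone. The fold change of *ACTA1* between homozygous and wild-type skin turned to -2.11 with the block, -2.74 with season and -5.07 without the lower-integrity libraries, and ran from -3.84 to 1.57 without 1 library. That of *DES* was -0.29, -0.23 and -1.02 in the same fits and -1.05 to 0.25 without 1 library, and that of *MYH9* -0.0104 to 0.14. Against heterozygous skin *ACTA1* ran from -5.43 to 0.29 without 1 library. Between heterozygous and wild-type skin *ACTA1* was -0.14 with the block, *ACTA2* ran from -0.26 to 0.40 and *MYH9* from -0.13 to 0.0202 without 1 library, and *MYH9* was 0.0465 with season. The wild-type percent of counts was 0.166 as a percent of TPM and 0.230 with the tropomyosins added, and with a pseudocount of 1 the 10 nearest genes held 6 of the same genes. Beyond the leave-outs of homozygous replicate 1, the cause was not tested. The block changed no call, since 0 members were called with it in each comparison, and same-numbered libraries correlated at -0.247 to 0.182, so the numbers do not pair them.

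Limits: wild-type skin had 2 libraries, the homozygous group 1 muscle-rich library of 4, and *MYOG*, *MYF5* and *LOC129347109* at most 132 counts a library. Season and integrity were joined by replicate number.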
